A study of Mus musculus with 7 samples.

Results

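Transcripts of 53 genes of glucose uptake, glycolysis, the pyruvate branch point and the citrate cycle were followed in pancreatic islets of pregnant mice. The genes were chosen by symbol, and a gene counted as measured when the annotation of the array gave its symbol alone for a probe set, a group of probes read as 1 value. This held for 51 of the 53, among 19938 genes in all, while Gpi1 and Eno1 were not analysed here. Where a gene had several probe sets, the one with the highest mean stood for it. Islets came from female mice of C57BL/6 strain background on day 15 of pregnancy, after timed mating at 12 to 16 weeks of age. Animals with an intact receptor gene (PrlR+/+, n = 3) were compared with 4 animals heterozygous for a null allele of the prolactin receptor (PrlR+/-, n = 4), with 1 Affymetrix array per mouse. The labels describe the controls as wild-type animals of the same null line and name no tissue restriction, promoter or Cre. All values are log2 intensities as the authors deposited them, and differences are PrlR+/- minus PrlR+/+.

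Beta cells measure blood glucose by burning it. Glucose enters through facilitative transporters, is trapped as glucose 6-phosphate, is split into trioses and ends as pyruvate, which mitochondria oxidise or carboxylate, and the ATP formed closes potassium channels and starts insulin secretion. Several steps have isoforms that differ between tissues. Mature rodent beta cells are known for Slc2a2 (GLUT2) in place of high-affinity transporters, for little lactate dehydrogenase, and for strong pyruvate carboxylase and mitochondrial glycerol phosphate dehydrogenase. Prolactin and placental lactogens act through the prolactin receptor in pregnancy, when beta cells secrete insulin at lower glucose.

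The islet label was borne out by the insulin gene Ins2, with values of 13.23 to 13.36 on all 7 arrays. Acinar markers were also high, with a list mean of 11.505 to 11.867 in PrlR+/+ and 11.606 to 12.163 in PrlR+/- mice over 10 of 12 genes, so the RNA was not of endocrine cells alone. In such bulk samples fewer cells of a type and less RNA per cell cannot be told apart. One array stood apart: in PrlR+/- 4, 47.1% of all genes lay outside the range of the 6 other mice, against 16.7% to 34.5% for each of the other arrays. The number of arrays limits the precision.

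No gene of the pathway passed the test between the genotypes. limma called 0 of the 51 measured genes at an adjusted p under 0.05, and 0 had an unadjusted p under 0.05; over all genes tested these shares were 0% and 2.2%. The groups did not overlap for 0 of the 51, beside 2.24% of all genes. Of the 51, 35 had a lower and 16 a higher mean in PrlR+/- islets, or 68.6% lower beside 43.7% of all genes. The median difference was -0.078, beside 0.014 over all genes, and the differences ran from -0.54 for Gpd1 to 0.24 for Pdk4. Most pathway genes were brighter than the median gene, so the medians were also read among 11963 genes at or above the 40th percentile of the mean. There the median was -0.081 for the 46 pathway genes left, beside -0.003 over all genes left. Without PrlR+/- 4, 31 of the 51 had a lower mean and 19 a higher one, with a median of -0.047 beside 0 over all genes. For 43 of the 51 genes the 95% interval of the difference lay within 1.5-fold in either direction (84.3%, beside 89.9% of all genes). Lists of cell type markers moved beside this, and 7 of 10 beta cell markers had lower means. Among these 7 were Slc2a2 and G6pc2, which are pathway genes themselves. Higher means were measured for 9 of 10 acinar, 6 of 8 endothelial and 7 of 7 stellate and fibroblast markers. The same held for 5 of 5 lymphocyte, 4 of 4 Schwann cell and neuron and 7 of 8 muscle markers. With the mean of the acinar markers as a covariate in the fit, the median difference of the 51 was -0.093 and 34 were lower. With the mean of the beta cell markers outside the pathway as covariate, it was -0.061 and 35 were lower. With 1 covariate at a time over 7 arrays, these fits cannot settle cell content. The part of any cell type in the pathway's shift was not tested. The 8 pathway genes with intervals beyond 1.5-fold were Slc2a2, Fbp1, Gpd1, Eno2, Pdk4, Idh1, Suclg2 and Mdh1. Smallest of the unadjusted p values was 0.0583 for Pdha1 (limma, adjusted p = 0.99).

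**Figure D1:**
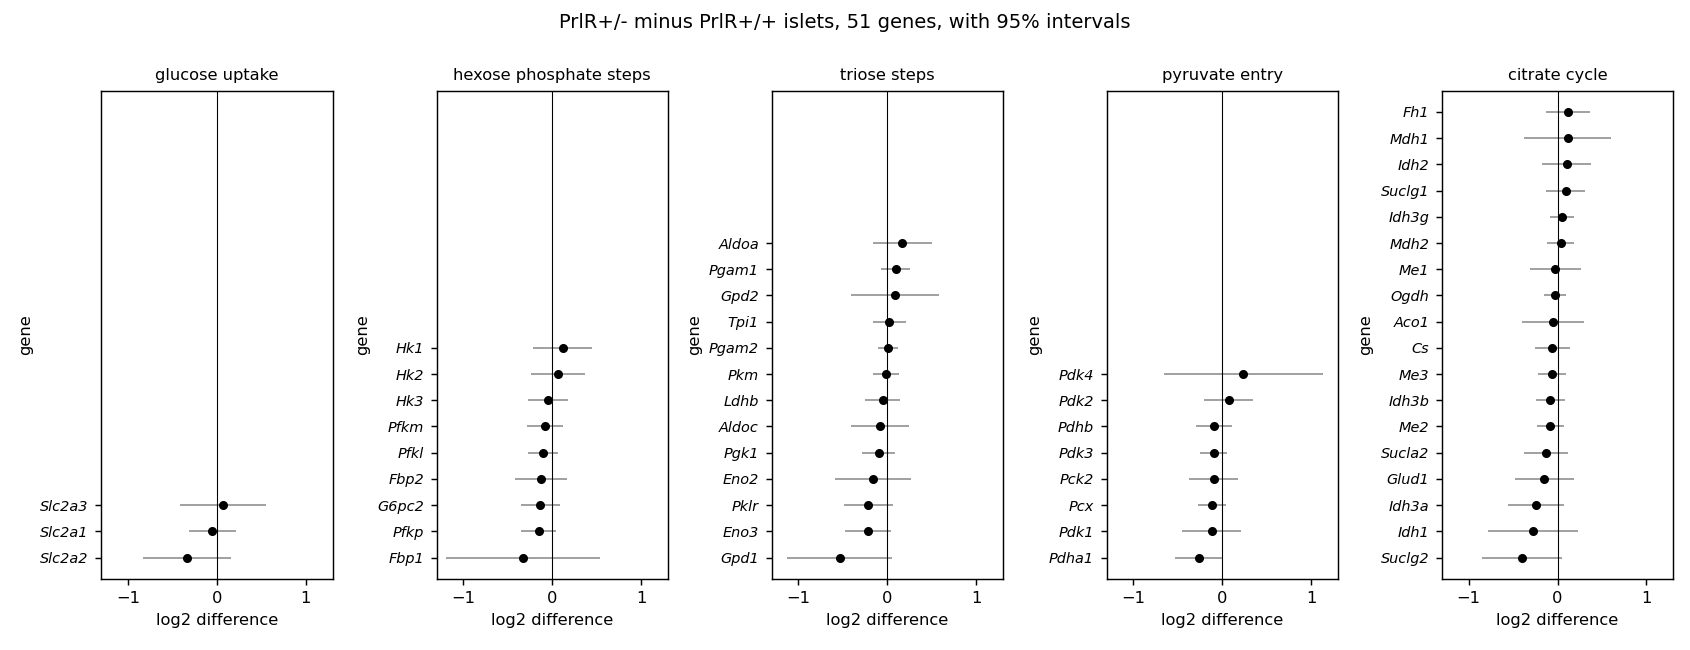
Difference between PrlR+/- (n = 4) and PrlR+/+ (n = 3) islets for the 51 measured genes, on the log2 scale, in 5 panels by step of the pathway, with genes on the vertical axis. Points are differences of means and bars 95% intervals from limma. Every interval spans 0, and the widest are those of Fbp1, Pdk4 and Gpd1.

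PrlR+/- 4 was the array in which pathway genes lay farthest from the other mice. It held the lowest value of all 7 mice for 21 genes and the highest for 10, so 60.8% of the 51 lay outside the range of the other 6 mice, beside 47.1% of all genes. The 10 included bright genes such as Aldoa (12.43), Idh3g (11.79), Mdh2 (11.66) and Pgam1 (11.57). A distance of over 0.5 from the median of the other 6 was measured for 7 of the 51 (13.7%), beside 6.82% of all genes; in each other mouse it was 1 or 2 of the 51. Low in this mouse were Fbp1 (-1.40 from that median), Gpd1 (-0.97), Slc2a2 (-0.85), Suclg2 (-0.82), Eno2 (-0.64) and Gpd2 (-0.62), while Pdk4 was high (0.72). Beside them, the mean of 8 beta cell markers outside the pathway was 11.97 in PrlR+/- 4 and 12.04 to 12.22 in the others. Among those markers Mafa, a transcription factor of mature beta cells, was at 9.54 against 10.32 to 10.36, and Glp1r at 12.90 against 13.22 to 13.42. Pdx1, Nkx6-1, Ucn3 and Slc30a8 lay within the range of the others. So did Ins2 and Iapp, the genes of insulin and amylin, at 13.33 and 13.52, though values as bright as these can be close to saturation. The quartiles of all genes lay closer together on this array. Its lower quartile was 5.82, against 5.62 to 5.73, and its upper quartile 8.97, against 8.99 to 9.07. Of the 51 genes, 44 lay above the median gene on all arrays. After quantile normalization, which evens out such differences between arrays, the median difference between genotypes was -0.059 in place of -0.078. That of Slc2a2 was -0.33 in place of -0.34. The part of the quartiles in the single values of this mouse was not tested. For several genes the difference is given below also without this mouse. For Slc2a3, Idh1 and Idh2 it went from 0.07, -0.28 and 0.10 to 0.17, -0.19 and 0.18.

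**Figure D2:**
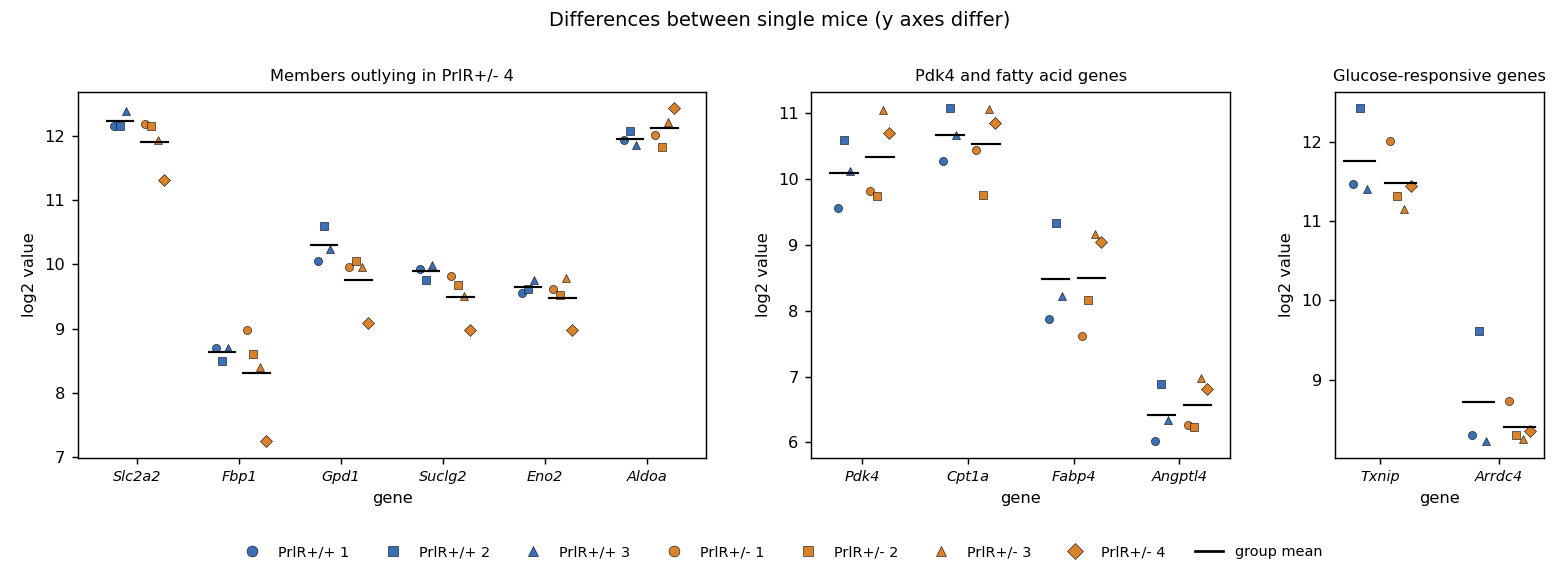
Log2 values in each of 7 mice (points, by genotype and mouse number) with group means (lines), for 6 pathway genes in which PrlR+/- 4 held the lowest or highest value, for Pdk4 with 3 genes known to respond to fatty acids, and for 2 genes known to respond to glucose; vertical axes differ. The fatty acid and glucose genes were picked after the values were seen. Acadl, Plin2, Ucp3, Ehhadh and Mlxipl, which did not follow the same order, are not drawn. PrlR+/- 4 is lowest for Slc2a2, Fbp1, Gpd1, Suclg2 and Eno2 and highest for Aldoa.

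Glucose uptake genes had lower means in PrlR+/- islets for 2 of 3, and none passed. Slc2a2, the high-capacity transporter of rodent beta cells, was measured at 12.16, 12.16 and 12.39 in PrlR+/+ 1 to 3 and at 12.18, 12.16, 11.94 and 11.31 in PrlR+/- 1 to 4. These values put it above 97.1% to 99.4% of the genes on each array, with 1 low mouse in the PrlR+/- group and overlapping groups. Its difference was -0.34 ± 0.21 (SE; limma, adjusted p = 0.99), with a 95% interval from -0.83 to 0.16, and -0.14 without PrlR+/- 4. Slc2a1 (GLUT1), the widely expressed high-affinity transporter, was at 9.66, 9.63 and 9.63 in PrlR+/+ and at 9.63, 9.86, 9.45 and 9.40 in PrlR+/- mice. The PrlR+/+ values fell within the PrlR+/- range, and the difference was -0.06 ± 0.11 (SE). Slc2a3 (GLUT3), known from neurons, lay between 7.33 and 7.95 in the 7 mice, near the middle of the genes on each array, with a difference of 0.07 ± 0.21 (SE).

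Among 9 measured genes of the hexose phosphate steps, 7 were lower on average in PrlR+/- islets and 2 were higher (median -0.10). G6pc2, the islet glucose-6-phosphatase that turns glucose 6-phosphate back into glucose, was among the brightest genes of the array, above 99.7% of genes in every mouse. It stood at 13.16, 13.22 and 13.17 in PrlR+/+ and at 13.16, 13.05, 12.83 and 13.17 in PrlR+/- mice. Such bright probe sets can be close to saturation, which the deposited values do not mark. The groups overlapped, with PrlR+/- 3 lowest, and the difference was -0.13 ± 0.09 (SE), or -0.06 without that mouse. Hk2, the insulin-regulated hexokinase of muscle and fat, was dim at 5.74, 6.14 and 6.01 in PrlR+/+ and 6.01, 6.07, 5.79 and 6.24 in PrlR+/- mice, below the median gene on every array. Hk3, a hexokinase known from blood cells, was also below the median gene on every array, at 5.12 to 5.47. Their differences were 0.06 ± 0.13 and -0.05 ± 0.09 (SE). Whether such low values reflect transcripts cannot be told apart from background here.

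Phosphofructokinase catalyses the committed step of glycolysis, and all 3 subunit genes were measured above the median gene on every array. Pfkm, named for muscle, was at 9.61, 9.61 and 9.68 in PrlR+/+ and at 9.71, 9.54, 9.61 and 9.36 in PrlR+/- mice. The liver form Pfkl was at 8.51, 8.74 and 8.57 against 8.55, 8.45, 8.52 and 8.50. Pfkp, the platelet form, was at 8.31, 8.45 and 8.23 against 8.25, 8.26, 8.18 and 8.02. In each of the 3 the groups overlapped, with differences of -0.08 ± 0.09, -0.10 ± 0.07 and -0.15 ± 0.08 (SE). The difference of Pfkm was -0.01 without PrlR+/- 4. Without PrlR+/+ 2, where Pfkl and Pfkp were highest, these were -0.04 for Pfkl and -0.09 for Pfkp, and without PrlR+/- 4 the difference of Pfkp was -0.10. Fbp1, the fructose bisphosphatase that runs the reverse reaction, was at 8.70, 8.50 and 8.70 against 8.97, 8.61, 8.40 and 7.25. Only its value in PrlR+/- 4 lay far from the rest, and the difference of -0.33 ± 0.37 (SE) was 0.03 without that mouse. The muscle form Fbp2 was dim, between 5.93 and 6.46, with a difference of -0.12 ± 0.12 (SE).

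**Figure D3:**
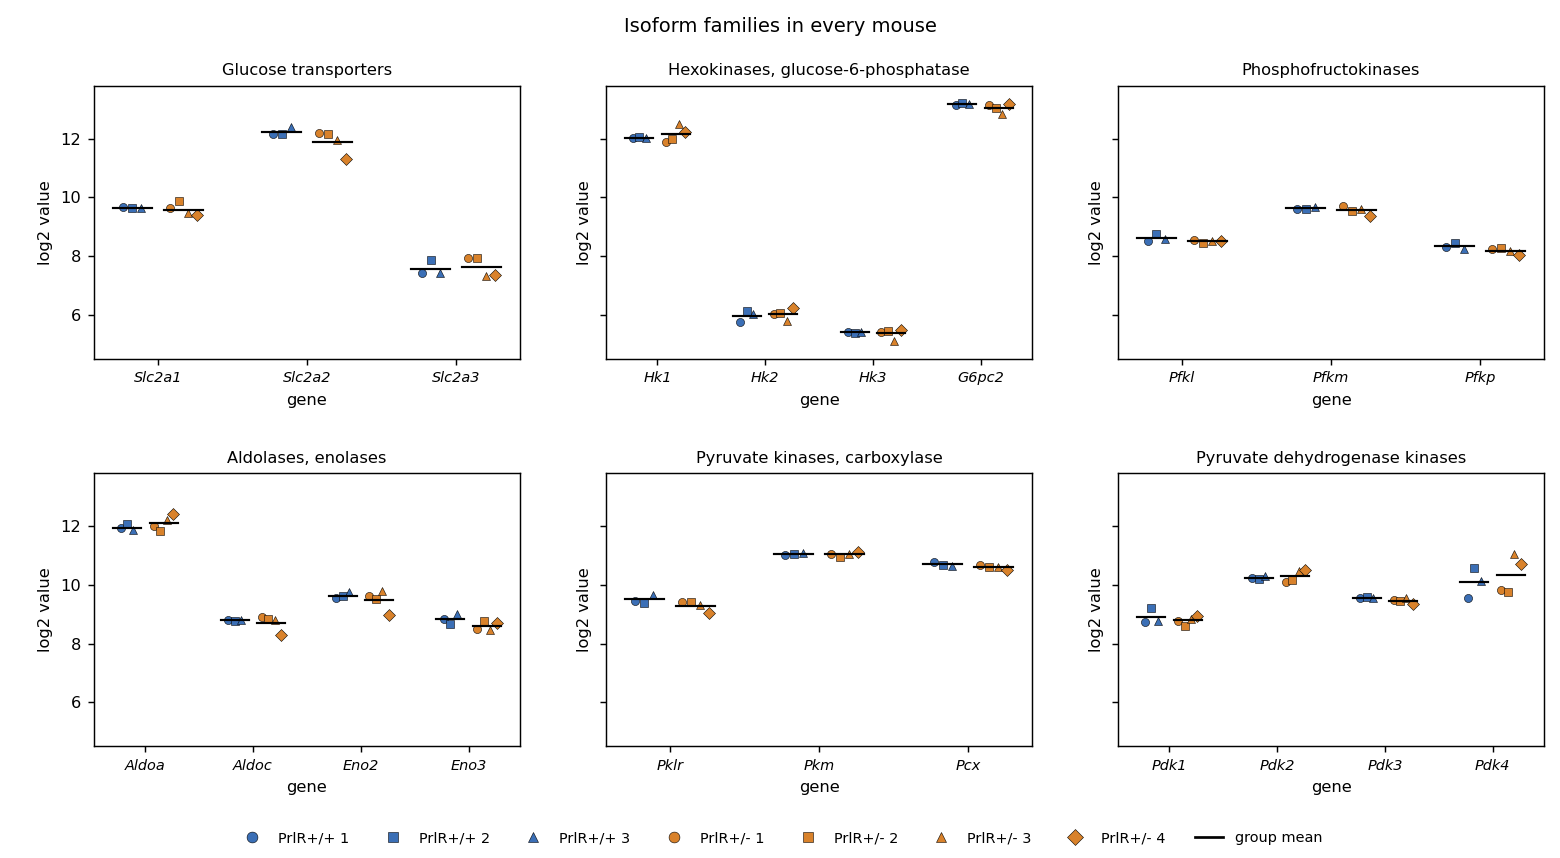
Log2 values of isoform families in each of 7 mice (points, by genotype and mouse number), with group means (lines). Hk1 is drawn with its brighter probe set. Probe sets differ in how strongly they bind, so heights are read within a gene; the genotypes overlap for every gene, and of the genes drawn Pdk4 has the widest range, 9.56 to 11.05.

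The hexokinase Hk1 gave a value that turned on which probe set was read. The brighter of its 2 probe sets, 10414661, was at 12.01, 12.06 and 12.03 in PrlR+/+ and at 11.89, 11.99, 12.49 and 12.24 in PrlR+/- mice, above 98.6% of genes on every array. The other, 10369541, was at 7.40, 7.50 and 7.12 and at 7.57, 7.46, 7.47 and 7.34, close to the median gene. Probe set numbers on this array follow the genome: of genes with 1 probe set, 99.6% had a majority of their 6 nearest neighbours by number on their own chromosome (RefSeq, GRCm38.p6). By that reading, added after the values were seen, the dimmer Hk1 probe set lies at the Hk1 locus and the brighter one on another chromosome. The annotation ties the brighter one to Hk1 by a single transcript record. Both gave the same difference, 0.12. Hk1 is a high-affinity hexokinase listed among the genes that mature beta cells keep low, and these arrays do not settle its level.

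The same check touched 6 further genes of the pathway with several probe sets. For Ldhb, Pgam1, Pgk1 and Suclg2 the highest-mean probe set lay away from the gene's own locus, and for Me1 and Pkm it lay at it. The own-locus probe sets gave differences of -0.01 for Ldhb, 0.09 for Pgam1, -0.09 for Pgk1 and -0.30 for Suclg2, in place of -0.05, 0.09, -0.09 and -0.40. Over the whole array the highest-mean probe set was away from its own locus for 261 of 988 such genes. Pgk1 and Pgam1 are known for processed copies elsewhere in the genome, and 2 probe sets of each held identical values in all 7 mice, so these values are uncertain as to the copy.

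**Figure D4:**
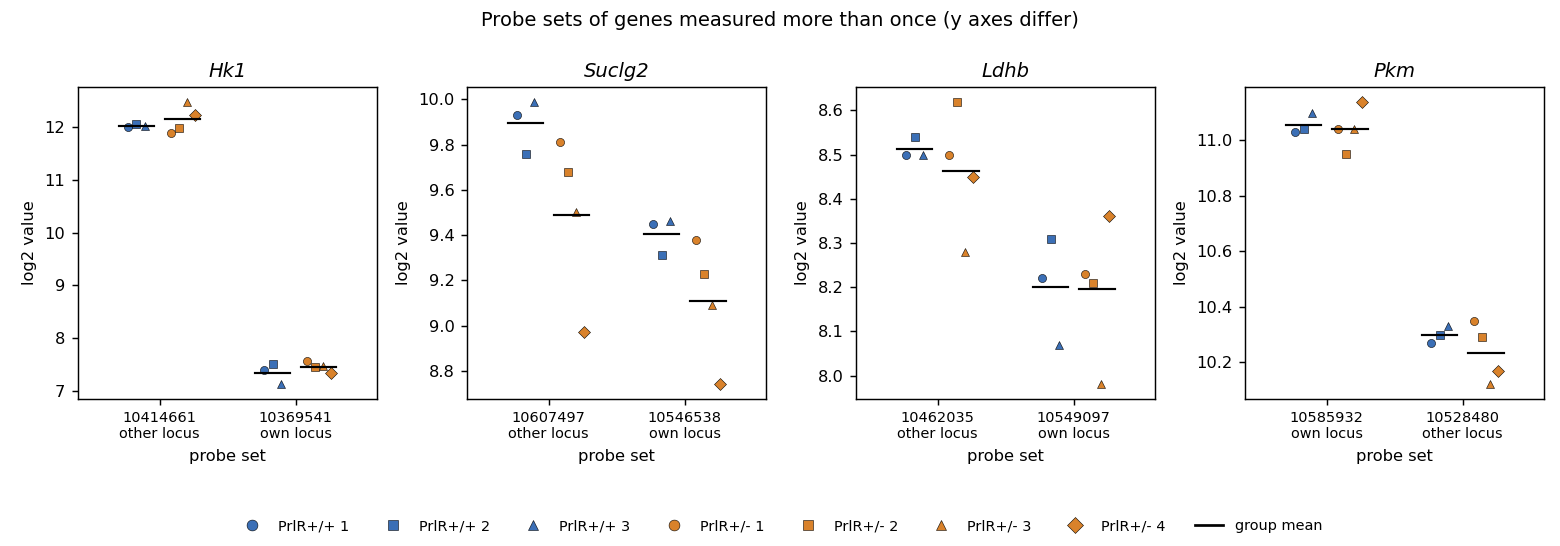
Log2 values of both probe sets of Hk1, Suclg2, Ldhb and Pkm in each of 7 mice (points, by genotype and mouse number) with the group means (lines). The Hk1 probe sets lie near 12 and 7.4, and PrlR+/- 4 is lowest in both Suclg2 probe sets.

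Of 13 measured genes of the triose steps, 8 had lower and 5 higher means. The pyruvate kinase genes Pkm, the widespread form, and Pklr, the form of liver, red cells and beta cells, were both above the median gene in every mouse. Pkm was at 11.03, 11.04 and 11.10 in PrlR+/+ and 11.04, 10.95, 11.04 and 11.14 in PrlR+/- mice, a difference of -0.01 ± 0.06 (SE). Its 95% interval, from -0.16 to 0.13, was among the narrowest of the pathway. Pklr was at 9.47, 9.38 and 9.67 against 9.41, 9.41, 9.33 and 9.03. The groups overlapped, with PrlR+/- 4 lowest and PrlR+/+ 3 highest, and the difference was -0.21 ± 0.12 (SE), or -0.12 without PrlR+/- 4 and -0.13 without PrlR+/+ 3. Array values do not separate the splice forms of Pkm.

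Aldolase splits fructose bisphosphate, and Aldoa, the muscle and general form, was at 11.94, 12.07 and 11.86 in PrlR+/+ and at 12.02, 11.83, 12.22 and 12.43 in PrlR+/- mice. Its difference of 0.17 ± 0.14 (SE) was 0.07 without PrlR+/- 4 and 0.27 without PrlR+/- 2. Aldoc, the brain form, lay between 8.78 and 8.90 in 6 mice and at 8.31 in PrlR+/- 4, with a difference of -0.08 ± 0.14 (SE), or 0.05 without that mouse. The neuronal enolase gene Eno2, which endocrine cells also use, was between 9.52 and 9.79 in 6 mice and 8.98 in PrlR+/- 4. Its difference of -0.16 ± 0.18 (SE) was 0.00 without that mouse. Eno3, the muscle enolase, was at 8.83, 8.66 and 9.0 against 8.51, 8.78, 8.46 and 8.71, a difference of -0.22 ± 0.11 (SE) and -0.13 without PrlR+/+ 3. The remaining lower steps showed differences of 0.02 ± 0.08 for Tpi1, -0.09 ± 0.08 for Pgk1 and 0.09 ± 0.07 for Pgam1 (SE), the last 0.05 without PrlR+/- 4. The muscle mutase gene Pgam2 was dim and flat, at 5.80 in 6 mice and 5.84 in PrlR+/- 4, a difference of 0.01 ± 0.05 (SE).

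Ldhb, a lactate dehydrogenase subunit, was at 8.50, 8.54 and 8.50 in PrlR+/+ and at 8.50, 8.62, 8.28 and 8.45 in PrlR+/- mice, a difference of -0.05 ± 0.08 (SE). Lactate dehydrogenase A, Ldha, is a gene known to be kept low in beta cells, and it was at 9.34, 9.50 and 9.13 against 9.54, 9.95, 9.41 and 9.43, a difference of 0.26 ± 0.15 (SE). The groups overlapped for both. PrlR+/- 2, highest in Ldha, was also the mouse with the highest acinar marker mean (12.163) and the highest endothelial one (9.835), and their part in the Ldha value was not tested.

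The glycerol phosphate shuttle carries reducing power from glycolysis into mitochondria through a cytosolic enzyme, Gpd1, and a mitochondrial one, Gpd2. Gpd1 had the largest difference of the 51 genes, with values of 10.05, 10.60 and 10.24 in PrlR+/+ and 9.95, 10.05, 9.96 and 9.08 in PrlR+/- mice. PrlR+/- 2 equalled the lowest PrlR+/+ mouse and the other 3 lay below all of them. The ratio of PrlR+/- to PrlR+/+ was 0.689, a log2 difference of -0.54 ± 0.25 (SE; limma, adjusted p = 0.99), and the difference was -0.31 without PrlR+/- 4. Gpd2 was at 9.89, 9.84 and 10.01 against 10.35, 10.18, 10.06 and 9.41. PrlR+/- 1, 2 and 3 lay above all PrlR+/+ mice and PrlR+/- 4 below them, so the difference of 0.09 ± 0.21 (SE) became 0.28 ± 0.09 (SE; limma, adjusted p = 1) without that mouse.

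Promoter sequence was read for 47 of the 51 genes in RefSeq windows of the 250 bases before an annotated start (GRCm38.p6), 68 windows in all. STAT proteins, which the prolactin receptor activates, bind the letters TTCNNNGAA, which read the same on both strands. Such a run was in 2 of the 68 windows (2.94%), those of Pfkm and Aldoc, beside 7.02% of all 32851 windows of this length. The E box letters CACGTG, bound by the carbohydrate-responsive factor ChREBP as a pair, were in 7 of the 68 (10.3%), of Fbp2, Ogdh, Pcx, Pdk2 and Pfkm, beside 6.02% of all. Neither motif overlaps the other. The windows with a TTCNNNGAA run are shown with that run in capitals, beside the window of Slc2a2, which holds none in these 250 bases. They are, 5′ to 3′ on the gene's strand, Slc2a2 at chr3:28697653-28697902 (+), Pfkm at chr15:98108221-98108470 (+) and Aldoc at chr11:78323948-78324197 (+).
Slc2a2: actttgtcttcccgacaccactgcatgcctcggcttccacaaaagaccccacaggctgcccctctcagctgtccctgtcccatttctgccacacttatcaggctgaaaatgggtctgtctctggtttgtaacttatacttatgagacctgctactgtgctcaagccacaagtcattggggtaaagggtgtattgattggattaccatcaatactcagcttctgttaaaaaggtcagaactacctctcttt
Pfkm: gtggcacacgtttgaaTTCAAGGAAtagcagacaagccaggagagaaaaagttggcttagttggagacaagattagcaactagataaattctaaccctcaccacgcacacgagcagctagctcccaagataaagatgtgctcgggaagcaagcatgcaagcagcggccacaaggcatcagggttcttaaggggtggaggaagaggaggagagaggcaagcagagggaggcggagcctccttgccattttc
Aldoc: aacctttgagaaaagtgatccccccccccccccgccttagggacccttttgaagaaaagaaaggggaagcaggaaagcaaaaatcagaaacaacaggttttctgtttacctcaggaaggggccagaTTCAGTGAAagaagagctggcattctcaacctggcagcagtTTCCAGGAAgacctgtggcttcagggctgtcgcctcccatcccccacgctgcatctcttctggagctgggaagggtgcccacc
Aldoc has 2 such runs in its window, and the Pfkm window is 1 of 4 annotated starts of that gene. The differences of Pfkm, Aldoc and Slc2a2 between genotypes, given above, did not pass the test. A match of letters is a description and not a binding site.

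Of 8 genes at the entry of pyruvate into mitochondria, 6 had lower and 2 higher means. Pcx, pyruvate carboxylase, which refills the citrate cycle in beta cells, was at 10.80, 10.69 and 10.66 in PrlR+/+ and at 10.68, 10.61, 10.62 and 10.50 in PrlR+/- mice. The groups overlapped by 1 mouse, PrlR+/- 1, and the difference was -0.11 ± 0.07 (SE) with a 95% interval from -0.27 to 0.04, and -0.07 without PrlR+/+ 1. Pdha1, the catalytic subunit of pyruvate dehydrogenase, was at 9.75, 10.03 and 9.85 against 9.80, 9.74, 9.51 and 9.42. Its difference of -0.26 ± 0.12 (SE) kept a negative sign in each fit that left out a mouse. Pdhb, the partner subunit, lay between 7.53 and 7.86, a difference of -0.09 ± 0.09 (SE) that was 0 without PrlR+/+ 2. Pck2, which turns mitochondrial oxaloacetate into phosphoenolpyruvate, was at 9.78 to 9.95 in 6 mice and 9.45 in PrlR+/- 4, a difference of -0.10 ± 0.12 (SE), or 0.00 without that mouse.

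The 4 pyruvate dehydrogenase kinases switch that enzyme off, and they varied between mice to very different degrees. Pdk4, induced by fatty acids and fasting, ran from 9.56 to 11.05: it was at 9.56, 10.59 and 10.13 in PrlR+/+ and at 9.82, 9.75, 11.05 and 10.70 in PrlR+/- mice. High and low values occurred in both genotypes, and the difference was 0.24 ± 0.38 (SE), with a 95% interval from -0.65 to 1.13. It hung on single mice of both genotypes: it was -0.03 without PrlR+/+ 1, 0.00 without PrlR+/- 3, 0.11 without PrlR+/- 4 and 0.48 without PrlR+/+ 2. Pdk1, a target of hypoxia signalling, was at 8.73, 9.23 and 8.78 against 8.78, 8.59, 8.85 and 8.95. Pdk2, the widespread form, was at 10.25, 10.19 and 10.31 against 10.11, 10.16, 10.49 and 10.52. Pdk3 was at 9.56, 9.58 and 9.56 against 9.48, 9.46, 9.57 and 9.36. In all 3 the groups overlapped, with differences of -0.12 ± 0.14, 0.07 ± 0.12 and -0.10 ± 0.06 (SE). Without PrlR+/- 4 they were -0.17, 0.00 and -0.06.

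Of 18 citrate cycle and linked genes, 12 were lower on average in PrlR+/- islets and 6 were higher (median -0.05). Citrate synthase, Cs, which opens the cycle, was at 10.49, 10.56 and 10.48 in PrlR+/+ and at 10.49, 10.57, 10.49 and 10.25 in PrlR+/- mice. The other 6 mice lay between 10.48 and 10.57, PrlR+/- 4 was lowest, and the difference was -0.06 ± 0.08 (SE), or 0.01 without PrlR+/- 4. Suclg2, the GTP-forming subunit of succinyl-CoA ligase, had the largest difference of this group. It was at 9.93, 9.76 and 9.99 against 9.81, 9.68, 9.50 and 8.97, which gave -0.40 ± 0.19 (SE; limma, adjusted p = 0.99), or -0.23 without PrlR+/- 4. PrlR+/- 2, 3 and 4 lay below every PrlR+/+ mouse. Its partners were at -0.13 ± 0.11 for Sucla2, the ATP-forming subunit, and 0.09 ± 0.09 (SE) for the shared subunit Suclg1.

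Isocitrate dehydrogenases showed no common direction. Idh3a, the catalytic subunit of the NAD-linked enzyme, was at 9.43, 9.81 and 9.36 against 9.41, 9.35, 9.36 and 9.04. Its difference of -0.24 ± 0.14 (SE) was -0.11 without PrlR+/+ 2 and -0.16 without PrlR+/- 4. The regulatory subunits Idh3b and Idh3g were at -0.08 ± 0.07 and 0.05 ± 0.06 (SE). Idh1, the cytosolic NADP-linked enzyme, was at 10.07, 10.05 and 10.70 against 10.42, 10.05, 9.79 and 9.73, a difference of -0.28 ± 0.22 (SE) that was -0.06 without PrlR+/+ 3. Its mitochondrial counterpart Idh2 was at 0.10 ± 0.12 (SE). Ogdh, of the oxoglutarate dehydrogenase complex, lay between 11.27 and 11.36 in all 7 mice, with a difference of -0.03 ± 0.05 (SE).

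The later steps and side reactions of the cycle came next. Fumarase Fh1 was at 0.12 ± 0.10, and the malate dehydrogenases Mdh1 of the cytosol and Mdh2 of mitochondria at 0.11 ± 0.21 and 0.04 ± 0.06 (SE). The difference of Mdh1 was 0.02 without PrlR+/- 4. Fh1 was 0.04 without PrlR+/- 2 and 0.05 without PrlR+/+ 3. Me1, the cytosolic malic enzyme of the pyruvate-malate cycle, was at 8.84, 9.04 and 8.95 in PrlR+/+ and at 8.95, 8.62, 9.13 and 8.97 in PrlR+/- mice, with overlapping groups and a difference of -0.03 ± 0.12 (SE). Me2 and Me3, the mitochondrial malic enzymes, were at -0.08 ± 0.06 and -0.07 ± 0.07 (SE), and Me3 lay below the median gene on every array. Glud1, glutamate dehydrogenase, was at -0.15 ± 0.14 (SE) and ran from -0.27 without PrlR+/+ 1 to -0.06 without PrlR+/- 4. Aco1, cytosolic aconitase and iron sensor, was at -0.05 ± 0.15 (SE).

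Choice between isoforms was compared within each mouse as the difference of 2 log2 values, which removes what both genes share. The height of such a balance depends on the probes, so only its shift between genotypes was read, without a test. Of 18 pairs named, 14 had both genes measured. The groups overlapped for 12 of them, among them Idh2 against Idh1 (shift of 0.38, and 0.37 without PrlR+/- 4), Slc2a1 against Slc2a2 (0.28, and 0.15 without PrlR+/- 4), Suclg2 against Sucla2 (-0.28, and -0.13 without PrlR+/- 4), Aldoc against Aldoa (-0.25, and -0.02 without PrlR+/- 4), Pkm against Pklr (0.20, and 0.08 without PrlR+/- 4) and Pfkm against Pfkl (0.02). They did not overlap for 2 of the 14 pairs. The share of 2.24% given above is of single genes, and none was computed over pairs of genes, so how often pairs separate is not known. Gpd2 and Gpd1 are different enzymes of the glycerol phosphate shuttle and not isoforms, so their balance is not a choice between isoforms. Gpd2 minus Gpd1 was -0.16, -0.76 and -0.23 in PrlR+/+ and 0.40, 0.13, 0.10 and 0.33 in PrlR+/- mice. Every PrlR+/- mouse lay above every PrlR+/+ mouse, PrlR+/- 4 included, with a shift of 0.62 that was 0.59 without PrlR+/- 4. Ldhb minus Ldha was -0.84, -0.96 and -0.63 against -1.04, -1.33, -1.13 and -0.98, a shift of -0.31. With the own-locus probe set of Ldhb the shift was -0.26 and the groups overlapped. For Suclg2 against Sucla2 the shift was -0.17 with the own-locus probe set of Suclg2.

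**Figure D5:**
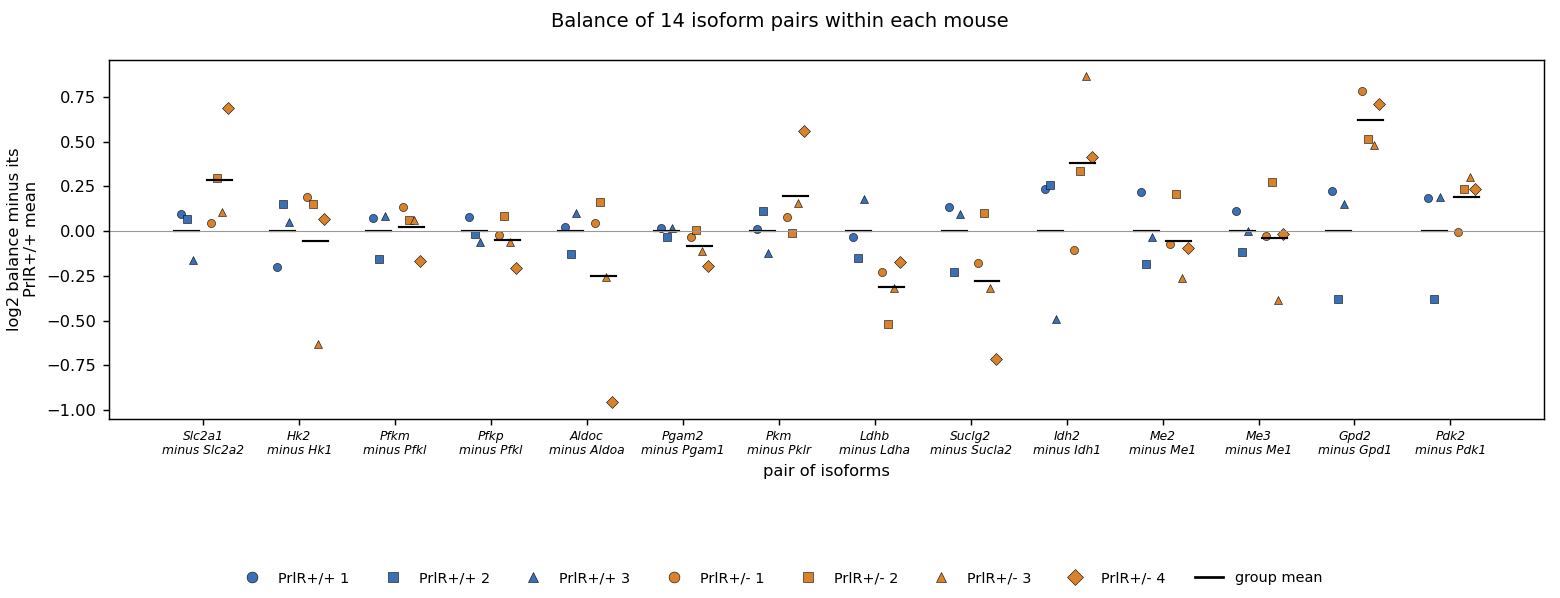
Balance of 14 gene pairs, each the difference of 2 log2 values within a mouse minus its PrlR+/+ mean, for 7 mice (points, by genotype and mouse number) with group means (lines). Gpd2 and Gpd1 are different enzymes of a shuttle and not isoforms. All 4 PrlR+/- mice lie above all 3 PrlR+/+ mice for Gpd2 minus Gpd1 and below them for Ldhb minus Ldha, the latter with the brighter Ldhb probe set.

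Of 90 further genes of sugar transport, glycolysis, lactate, pyruvate entry, the citrate cycle, carriers and the pentose phosphate route, 80 were measured, and 0 passed in either direction (limma); 4 had an unadjusted p under 0.05 (Slc2a13, Pfkfb2, Pgm3 and Cycs), or 5% beside 2.2% of all genes. Lower means were measured for 47 of the 80 (58.8%, beside 43.7% of all genes), with a median difference of -0.02. The groups did not overlap for 5, namely Slc2a13, Pfkfb2, Got2, Gpd1l and Vdac2, named here after their values were seen, or 6.25% beside 2.24% of all genes. Slc2a13, a proton-linked inositol transporter of the same family, was at 10.85, 10.94 and 10.99 in PrlR+/+ and at 10.59, 10.00, 10.55 and 10.50 in PrlR+/- mice, a difference of -0.52 ± 0.15 (SE; limma, adjusted p = 0.99). Pfkfb2, whose product makes the activator of phosphofructokinase, was at 10.84, 10.92 and 10.89 against 10.66, 10.81, 10.53 and 10.57, a difference of -0.24 ± 0.08 (SE). All 4 PrlR+/- mice lay below all PrlR+/+ mice for both. Carriers and shuttle genes had lower means for 12 of 16, with a median of -0.10. The adenine nucleotide carrier Slc25a4 was at -0.19 ± 0.08 and the outer membrane channel Vdac2 at -0.35 ± 0.18 (SE), the latter with 9.98 in PrlR+/- 4 against 10.48 to 10.85.

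The smaller groups gave 4 lower of 11 for trioses and lactate (Ldha as above, Slc16a7 at 0.14 ± 0.15), 13 lower of 20 for pyruvate entry and the citrate cycle (Cycs at 0.19 ± 0.07, Sdha at -0.23 ± 0.12) and 3 lower of 9 for the pentose phosphate route (Rpe at -0.28 ± 0.27, Pgls at 0.07 ± 0.07, all SE). Among 21 regulators of glycolysis and hypoxia genes 8 had lower means. Epas1 was at 0.38 ± 0.17 and Hif1a at -0.28 ± 0.14 (SE), hypoxia-inducible factors both, and neither passed.

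The cell type lists themselves held 0 genes that passed (limma), and the markers of smallest unadjusted p are given for each. Among beta cell markers these were the transcription factor Nkx6-1 at 0.11 ± 0.06 and Slc2a2 as above, and list means were 12.169 to 12.332 in PrlR+/+ and 12.021 to 12.277 in PrlR+/- mice. Other endocrine lists gave Gria3 at -0.37 ± 0.21 and Irx2 at 0.09 ± 0.07 (alpha), Rbp4 at 0.16 ± 0.14 and Sst, somatostatin, at 0.07 ± 0.09 (delta), and Aqp3 at 0.11 ± 0.07 and Vsig1 at 0.09 ± 0.08 (PP). The exocrine lists gave the elastases Cela2a at 0.14 ± 0.12 and Cela1 at 0.32 ± 0.28, and the duct genes Sox9 at 0.21 ± 0.12 and Muc1 at 0.45 ± 0.34 (all SE).

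Lyz2, lysozyme of myeloid cells, was at 8.19, 8.05 and 7.93 in PrlR+/+ and at 8.80, 8.72, 8.49 and 8.79 in PrlR+/- mice. All PrlR+/- mice lay above all PrlR+/+ mice, with a difference of 0.64 ± 0.10 (SE; limma, adjusted p = 0.99). Tyrobp, next in that list by p, was at 0.09 ± 0.12, and 6 of 8 of that list had higher means, with a median of 0.03. Among the markers named, the groups also did not overlap for Emcn, Thy1, Cd3d and Sox9, with higher values in PrlR+/- mice for each. Endothelial markers gave Emcn at 0.26 ± 0.09 and Cdh5 at 0.23 ± 0.10, with list means of 9.54 to 9.60 in PrlR+/+ and 9.50 to 9.84 in PrlR+/- mice. Stellate and fibroblast markers gave Thy1 at 0.34 ± 0.09 and Dcn at 0.29 ± 0.27, with list means of 7.92 to 8.18 and 7.99 to 8.46. The remaining lists gave Cd3d at 0.18 ± 0.07 and Cd2 at 0.12 ± 0.11 (lymphocyte), Uchl1 at 0.18 ± 0.08 and Nefm at 0.18 ± 0.09 (neuron), Ckm at 0.28 ± 0.11 and Myh1 at 0.12 ± 0.06 (muscle), Alb at 0.38 ± 0.17 and Adipoq at 0.15 ± 0.11 (liver and adipocyte), and Alas2 at 0.04 ± 0.09 (red blood cell, all SE).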

How the data were processed

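Per the labels, 250 ng of total RNA with an integrity number above 8.5 was labelled for 1 array per mouse. The authors deposited 1 table of 35556 probe sets in 7 columns, whose range fits log2 values. Affymetrix Expression Console 1.2.0.20 is named in the submitters' processing notes. How background and scale were set is not given in the sources used here, nor is any batch. Of the probe sets, 21789 had 1 gene symbol in the platform annotation, 1621 had several and 12146 none listed; the highest-mean probe set stood for each of 19938 genes. No filter was applied. Differences come from limma 3.58.1 (lmFit, eBayes, R 4.3.3) over all genes, 2-sided, with Benjamini-Hochberg adjustment and a threshold of 0.05; SE is limma's. The fit was tested on simulated data. Percentiles rank a gene within its array. Tables were made with pandas 2.3.3.

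Members and gene lists were chosen with earlier results of these data known. Every measured member is named; textbook beta cell or disallowed isoforms are given in every mouse, with others added after their values were seen. From each other list the genes that passed, or the 2 of smallest unadjusted p, are named. Genotypes could not be checked by the level of Prlr, which was not analysed here. Alternatives were other variance models, array weights, 2 scalings, 2 filters on dim genes, other probe set rules, marker covariates, the replicate block, leaving out each mouse and a threshold of 0.1.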

Additional observations from a re-analysis of the deposited data

Results flagged for a closer look

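Within the 4 PrlR+/- mice, 7 of 51 genes (13.7%) had a single mouse far from the other 3 by Dixon's criterion, which chance meets in about 1 of 20 groups; over all genes the share was 15.0%. In PrlR+/- 4 these were Gpd1 at 9.08 (the other 3 at 9.95 to 10.05), Aldoc at 8.31 (8.80 to 8.90), Idh3a at 9.04 (9.35 to 9.41) and the dim gene Pgam2 at 5.84 (5.80 in each of the others). PrlR+/- 2 had Aco1 at 9.08 (9.31 to 9.32), inside the PrlR+/+ range of 9.06 to 9.67, and Fh1 at 10.57 (10.24 to 10.29). PrlR+/- 3 had the dim gene Hk3 at 5.12 (5.43 to 5.47).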

How the results depend on the processing

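No gene of the pathway and no gene overall was called under any of the 20 alternatives, with member adjusted p from 0.818 to 1 (limma). In none of them did a member whose difference exceeded its SE change sign (22 of 51), while 23 of 51 changed sign in at least 1. Members with an unadjusted p under 0.05 numbered 0 with all arrays, 1 with array weights (Eno3), median centring (Pdha1), the beta cell marker covariate (Suclg2) or the replicate block (Gpd1), 4 with the acinar marker covariate (Gpd1, Idh3a, Pdha1 and Pfkp) and 0 to 2 without 1 mouse (1 without PrlR+/+ 1, PrlR+/+ 2 or PrlR+/- 4, and 2 without PrlR+/- 1). Lower means were found for 31 to 39 members without 1 mouse (31 without PrlR+/+ 2 or PrlR+/- 4, and 39 without PrlR+/+ 1). The median member difference of -0.078 was -0.015 with array weights, -0.047 without PrlR+/- 4 and -0.038 without PrlR+/+ 2; the cause was not tested. Same-numbered mice did not deviate together: their deviations correlated at 0.0896, -0.386 and -0.0287. The replicate block used only numbers found in both genotypes, so it also left out PrlR+/- 4. No fit called a gene, so the calls cannot show whether mice were paired. The own-locus probe sets were chosen after the values were seen. Signal over background was not given, so Hk2, Hk3, Fbp2, Pgam2 and Me3, below the median gene on every array, carry the least information.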

Other observations

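Pdk4, with a range of 1.49 between mice that only Fbp1 (1.72) and Gpd1 (1.52) exceeded among the 51 genes, was high in the same animals as other genes known to respond to fatty acids, chosen after the values were seen. Its 3 highest values were in PrlR+/- 3 (11.05), PrlR+/- 4 (10.70) and PrlR+/+ 2 (10.59). Angptl4, a secreted inhibitor of lipoprotein lipase, was at 6.97, 6.81 and 6.89 in these animals and at 6.02 to 6.34 in the other 4. Cpt1a, which admits fatty acids to mitochondria, was at 11.07, 10.85 and 11.08 against 9.76 to 10.67. Fabp4, a fatty acid binding protein and adipocyte marker, was at 9.17, 9.05 and 9.33 against 7.61 to 8.23. The mean of 6 liver and adipocyte markers, Fabp4 among them, was likewise highest in these animals, at 7.71 (PrlR+/- 3), 7.84 (PrlR+/- 4) and 7.75 (PrlR+/+ 2) against 7.42 to 7.54. Without Fabp4 it was 7.42, 7.60 and 7.44 against 7.33 to 7.47. The defining adipocyte genes were dim in all 7 mice, with Adipoq at 4.07 to 4.64 and Plin1 at 6.45 to 6.65, both highest in PrlR+/- 4. The part of adipocyte RNA in these values was not tested. Other genes of this kind did not follow the same order: Acadl was at 9.05, 8.44 and 9.08 against 8.13 to 8.65, Plin2 was at 9.14, 8.64 and 8.82 against 8.41 to 8.86, and Ucp3 was dim at 5.21 to 5.61. Ehhadh, a peroxisomal fatty acid oxidation enzyme, was at 9.84, 10.29 and 10.18 in PrlR+/+ and at 9.71, 8.91, 9.67 and 9.59 in PrlR+/- mice, a difference of -0.63 ± 0.21 (SE; limma, adjusted p = 0.99). The animals include both genotypes, and their feeding state is not given in the sources used here.

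Genes known to respond to glucose were also picked out after the values were seen. Txnip and Arrdc4, arrestin-family genes known to rise with glucose through ChREBP, were highest in PrlR+/+ 2 and next in PrlR+/- 1. Txnip was at 12.42 and 12.01 in these mice and at 11.15 to 11.46 in the other 5, and Arrdc4 at 9.62 and 8.73 against 8.23 to 8.35. Pklr, a classic ChREBP target in liver, was at 9.38 and 9.41 in them, within the range of the other mice. Mlxipl, which encodes ChREBP, was lowest in PrlR+/+ 2 at 11.31, against 11.49 to 11.80.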
